A study of Mus musculus with 6 samples.

Results

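The genes of oxidative phosphorylation, encoded in the nucleus and in the mitochondrial genome, were followed in sorted fractions of a mouse mammary carcinoma line. Members were the protein-coding rows of the expected-count table whose symbols carry the names of the respiratory complexes (Ndufa, Ndufb, Ndufc, Ndufs, Ndufv, Uqcr, Cox4i, Cox5, Cox6, Cox7, Cox8 and Atp5 names, Cyc1, Cycs, Sdha to Sdhd, and the mt-Nd, mt-Co, mt-Cytb and mt-Atp genes). This gave 108 of the 53465 genes in the table. By complex, 38 were complex I subunits, 8 were complex I assembly factors (the Ndufaf genes, which the name rule takes in), 4 were in complex II, 9 in complex III, 18 in complex IV and 17 in complex V, with Cycs counted alone and 13 encoded in mitochondrial DNA. The cells were 4T1, a line that grows as a mammary carcinoma in mice. They had become resistant to axitinib, an inhibitor of VEGF receptor kinases, in mice dosed at 100 mg/kg/day, were recovered from lesions present after surgery, and were cultured in 0.5 µM axitinib. They were then stained with C12FDG, a β-galactosidase substrate that becomes fluorescent on cleavage, and sorted. The SM positive fraction (3 libraries) had high signal for the senescence-associated activity and the SM negative fraction (3 libraries) had low signal. Both fractions therefore share the line, the resistance and the drug, and no parental or drug-free cells are compared here.

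Oxidative phosphorylation moves electrons from NADH (complex I) and succinate (complex II) through ubiquinone, complex III and cytochrome c to oxygen at complex IV, and complex V uses the resulting proton gradient to make ATP. Most subunits are nuclear genes whose proteins are imported, while the mitochondrial genome supplies core subunits of complexes I, III, IV and V and none of complex II. In tumour cells the pathway is known for supplying ATP and for the NAD+ that growth needs, and C12FDG sorting rests on lysosomal β-galactosidase, which is no component of it.

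Libraries held 19691379 to 26533528 counts in SM positive cells and 18733801 to 25302168 in SM negative cells, and 14038 genes passed edgeR's filter on low counts. The labels do not say whether replicates came from separate cultures or sorts, and the p-values reflect only the library-to-library spread seen here, possibly a technical one. Libraries with the same replicate number deviated together from their fraction means, and results are therefore also given with the replicate number as a block where that changes a call. Epithelial marker genes were detected for 13 of 14, with summed levels of 4421 to 4734 CPM (counts scaled to one common library size, with TMM factors) in SM positive and 4678 to 4911 CPM in SM negative libraries. Leukocyte markers summed to 4.95 to 6.43 CPM in SM positive and 6.65 to 8.91 CPM in SM negative libraries, nearly all from Cd68, with Cd3e at 0 in all 6. Fibroblast markers summed to 6.12 to 8.51 CPM in SM positive and 4.64 to 5.33 CPM in SM negative libraries, mostly Pdgfra, with Col3a1, Lum and Thy1 at 0. Of the endothelial markers, Eng made up nearly all of 72.0 to 77.5 CPM in SM positive and 67.4 to 71.0 CPM in SM negative libraries, while Emcn and Cldn5 were at 0.

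Oxidative phosphorylation genes differed little between the fractions, and the few members called once replicates were blocked were lower in SM positive cells. Of 101 members tested, 0 were called higher and 0 lower at an adjusted p of 0.05 (edgeR quasi-likelihood test, no block), where 1.35% of all tested genes were called, 1.14% higher and 0.214% lower. The smallest adjusted p among them was 0.276, 4 members were under 0.05 before adjustment, as were 13.6% of all genes, and DESeq2 and limma-voom also called 0. With the replicate block, edgeR called 4 members lower, Ndufb9, Ndufs4, Ndufa5 and Atp5a1, and 0 higher, where 5.6% of all tested genes were called lower and 8.52% higher. The 4 are 3.96% of the members tested, below the share of all tested genes called lower. Before adjustment, 19 were lower and 1, Atp5j, was higher at 0.05 with the block, where 12.5% of all genes were lower and 14.8% higher. The count of adjusted calls depended on the pairs used. With the block, leaving out replicate 1 or replicate 3 left 0 members called lower. Leaving out replicate 2 gave 10, of which Ndufb9 and Atp5a1 are among the 4. Calls over the whole table varied with the pair left out as well. They were 1982 with the block and all pairs, and 705 to 1793 with 1 pair left out, most without replicate 2. These totals join both directions, so whether the 10 exceed the share of all genes called lower was not tested. Removing the length trend together with the block left Atp5a1 alone, and removing the GC trend left all 4 and added Cox7a2. In RNA from a sorted bulk fraction, fewer cells of a type and less RNA per cell cannot be told apart.

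The members were nonetheless shifted in sign. Among the 88 tested nuclear members, 70 (79.5%) had a negative log2 change (SM positive over SM negative), against 50.2% of all tested genes, and the median was -0.06, a difference of -4.25%, against -0.0008 for all tested genes. All 3 same-number pairs were lower in SM positive for 30 nuclear members (34.1%), against 22.7% of all genes, and higher for 3 (3.41%), against 23.9%. The fractions' libraries did not overlap for 12 nuclear members lower in SM positive (13.6%, against 9.47% of all genes) and for 2 higher ones (2.27%, against 10.4%). These counts describe genes that share libraries and vary together, and they carry no test. The summed level of the nuclear members was 10771, 10623 and 10174 CPM in SM positive replicates 1, 2 and 3 and 11455, 10571 and 10835 CPM in SM negative replicates 1, 2 and 3, so the sums of the fractions overlap. Of the 13 tested epithelial markers, 7 had negative and 6 positive values. With the block Epcam, Krt19 and Cldn4 were called lower in SM positive and 0 higher (edgeR adjusted p = 0.0147, 0.0263 and 0.00727). Krt19 was low, with means of 0.917 CPM in SM positive and 1.71 in SM negative cells. Epcam averaged 136 CPM in SM positive and 151 in SM negative cells, and Cldn4 averaged 264 and 296. Among markers of other cell types, the block called Cd68 lower (log2 change -0.46, adjusted p = 0.0148) and Pdgfra and Eng higher (0.50 and 0.13, adjusted p = 0.0423 and 0.0426), and the part of these markers in the shift was not tested.

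**Figure D1:**
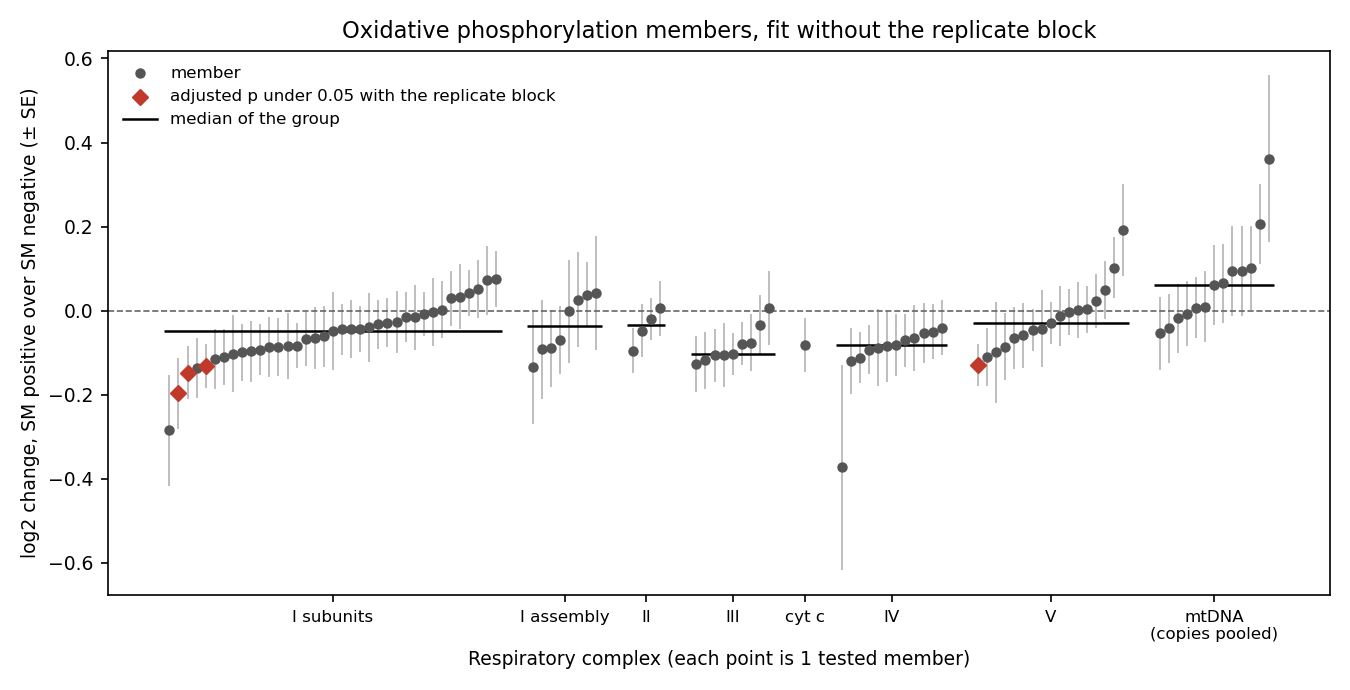
The log2 change (SM positive over SM negative, edgeR without the block, y axis) is drawn for each tested member, ordered within its complex, with its SE as a grey line and the group median as a bar; mitochondrially encoded members are drawn with their nuclear copies pooled. Most nuclear points lie slightly below 0, and the 4 red diamonds mark Ndufa5, Ndufs4, Ndufb9 and Atp5a1, which passed an adjusted p of 0.05 with the replicate block.

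The precision of the nuclear members is given here by the fit without the block. It reflects the spread between these libraries only. It does not cover how reads were placed between a gene and its copies, which moved the values of Ndufb4 and Cycs (below). The median SE was 0.07 on the log2 scale over the 88 nuclear members. The 95% interval of the fold change lay within 2-fold either way for 88 of them and within 1.5-fold for 87. Only Cox6a2, which had a mean of 2.31 CPM in SM positive and 2.96 in SM negative cells, had an interval that reached past 1.5-fold. The 7 members that were not tested, Ndufa4l2, Cox4i2, Cox6b2, Cox7a1, Cox7b2, Cox8b and Cox8c, had 0 to 3 counts in each library. A count of 0 allows up to 0.113 to 0.16 CPM (3 counts of the library total), a limit that covers counting error only, as intervals on counts do.

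Complex I, the NADH dehydrogenase and the pathway's main entry point, had 37 of 38 nuclear subunits tested, with 30 negative, 7 positive and a median log2 change of -0.05. Ndufb9, an accessory subunit of the membrane arm, had 220.1, 219.6 and 213.5 CPM in SM positive replicates 1, 2 and 3 and 248.1, 229.4 and 237.6 CPM in SM negative replicates 1, 2 and 3. Every SM positive library was below every SM negative one. The log2 change was -0.13 ± 0.0521 (SE), with an edgeR adjusted p of 0.297 without and 0.0342 with the block. Ndufb9 (ENSMUSG00000022354, chr15:58933756-58939488, plus strand, GRCm38) shares 17.2% of its 31-base stretches with the overlapping same-strand gene Gm49356, and with both rows pooled the adjusted p with the block was 0.0307 (edgeR).

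Ndufs4, an accessory subunit near the NADH-oxidising module whose loss in mice gives a Leigh-like encephalopathy, had 48.7, 46.8 and 48.7 CPM in SM positive replicates 1, 2 and 3 and 54.7, 50.4 and 54.5 CPM in SM negative replicates 1, 2 and 3. The fractions did not overlap. Its log2 change was -0.15 ± 0.0623 (SE), with an edgeR adjusted p of 0.329 without and 0.0427 with the block, and the gene (ENSMUSG00000021764) lies at chr13:114287795-114388258 on the minus strand with no overlapping gene. Ndufa5, an accessory subunit of the peripheral arm that is named here after its values were seen, had 23.7, 22.2 and 20.4 CPM in SM positive replicates 1, 2 and 3 and 26.3, 25.6 and 24.2 CPM in SM negative replicates 1, 2 and 3. Again no SM positive library reached an SM negative one, with a log2 change of -0.20 ± 0.0836 (SE) and an edgeR adjusted p of 0.331 without and 0.038 with the block.

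The positive end of complex I was smaller. Ndufa8, a subunit of the intermembrane-space side, averaged 61.7 ± 2.05 CPM in SM positive and 58.6 ± 3.94 in SM negative cells (SD, n = 3 each), a log2 change of 0.08 ± 0.0663 (SE; edgeR adjusted p = 0.687). Ndufa1, needed for assembly of the membrane arm, averaged 30.3 ± 1.76 CPM in SM positive and 28.9 ± 2.02 in SM negative cells, for a log2 change of 0.07 ± 0.081 (SE; edgeR adjusted p = 0.771). Neither difference was larger than the spread between libraries, and in both genes the libraries of the fractions overlapped. Ndufa9 was the 1 complex I subunit with every SM positive library above every SM negative one. It had 62.6, 64.9 and 62.3 CPM in SM positive replicates 1, 2 and 3. SM negative replicates 1, 2 and 3 had 61.6, 60.7 and 62.0 CPM. The log2 change of Ndufa9 was 0.04 ± 0.0549 (SE; edgeR adjusted p = 0.806 without and 0.608 with the block). Ndufb4 had the most negative value of complex I, -0.28 ± 0.131 (SE; edgeR adjusted p = 0.377), with 4.72 ± 0.464 CPM in SM positive and 5.75 ± 0.0696 in SM negative cells. It shares 19.1% of its 31-base stretches with the processed pseudogene Ndufb4c, which held 549 to 920.4 counts in SM positive and 556 to 800.1 in SM negative libraries, and its log2 change with the copy pooled was 0.02.

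Ndufa4, named for complex I and in later work placed with complex IV, averaged 160 ± 10.3 CPM in SM positive and 165 ± 11.9 in SM negative cells, with a log2 change of -0.04 ± 0.0690 (SE; edgeR adjusted p = 0.843). Its hypoxia-associated paralog Ndufa4l2 had at most 2 counts in a library. The 8 assembly factors, chaperones that join subunits and are absent from the finished enzyme, had 5 negative and 3 positive values with a median log2 change of -0.04. Ndufaf8 was lowest with 12.3 ± 1.01 CPM in SM positive and 13.4 ± 2.50 in SM negative cells (log2 change -0.13 ± 0.135, SE; edgeR adjusted p = 0.735) and Ndufaf2 highest (0.04 ± 0.136, SE; edgeR adjusted p = 0.929). None of the 8 separated the fractions, and Ndufaf4 (log2 change 0.04) and Ndufaf1 (-0.09) had adjusted p of 0.884 and 0.735 (edgeR).

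**Figure D2:**
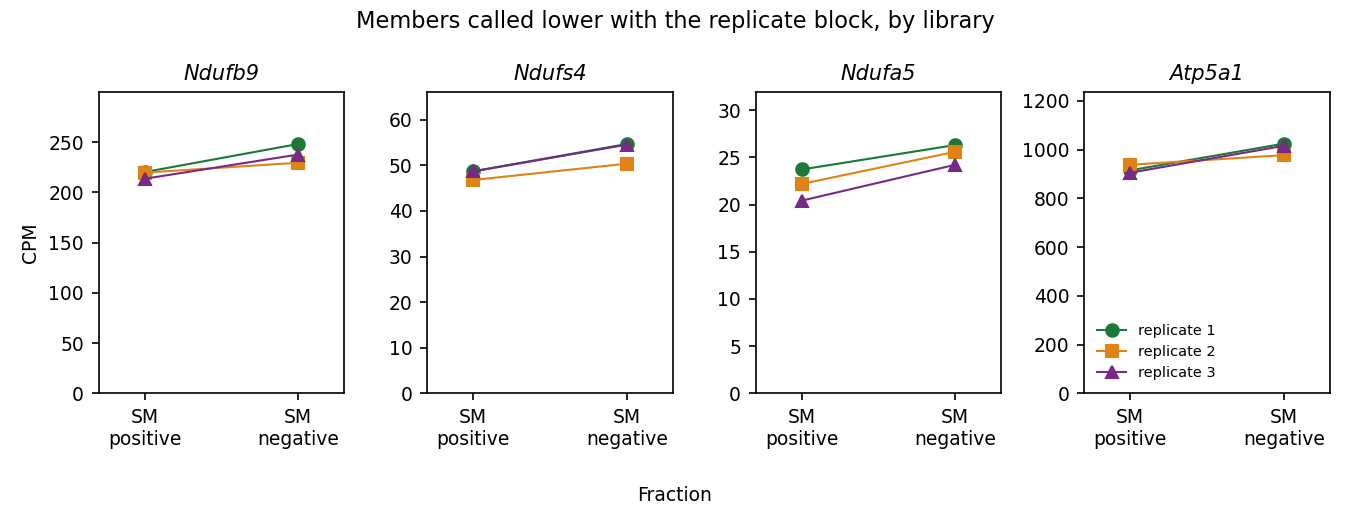
CPM (y axis, from 0) is drawn in SM positive and SM negative libraries for the 4 members called lower with the replicate block, with a line joining libraries of the same replicate number. All 12 lines are higher at the SM negative end, and the step is smallest in replicate 2 for Ndufb9, Ndufs4 and Atp5a1.

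Complex II, succinate dehydrogenase, is also an enzyme of the TCA cycle and is entirely nuclear. Sdha, the flavoprotein, had 139.0, 143.1 and 137.6 CPM in SM positive replicates 1, 2 and 3 and 141.1, 141.6 and 142.9 CPM in SM negative replicates 1, 2 and 3, values that overlap (log2 change -0.02 ± 0.0496, SE; edgeR adjusted p = 0.906). Sdhb, the iron-sulfur subunit, had 102.8, 102.7 and 103.2 CPM in SM positive replicates 1, 2 and 3 and 114.6, 105.7 and 109.4 CPM in SM negative replicates 1, 2 and 3. Sdhb alone of the 4 separated the fractions, with a log2 change of -0.10 ± 0.0538 (SE) that did not pass (edgeR adjusted p = 0.486 without and 0.150 with the block). The membrane anchors Sdhc and Sdhd had log2 changes of 0.01 and -0.05 (edgeR adjusted p = 0.982 and 0.813).

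Complex III, which passes electrons from ubiquinol to cytochrome c, had a median log2 change of -0.10, with 8 of 9 members negative. Within pairs, 6 of the 9 (66.7%) were lower in SM positive in all 3, against 22.7% of all genes. Uqcrc1, a core protein of the complex, had 200.4, 201.0 and 190.6 CPM in SM positive replicates 1, 2 and 3 and 212.4, 208.9 and 214.3 CPM in SM negative replicates 1, 2 and 3. The fractions did not overlap, and the log2 change of -0.10 ± 0.0502 (SE) did not pass (edgeR adjusted p = 0.405 without and 0.0963 with the block). Cyc1, the haem-bearing cytochrome c1, had 94.1, 106.4 and 95.9 CPM in SM positive replicates 1, 2 and 3 and 111.0, 101.0 and 111.5 CPM in SM negative replicates 1, 2 and 3. Replicate 2 ran the other way from replicates 1 and 3, and the log2 change was -0.13 ± 0.0667 (SE; edgeR adjusted p = 0.446). Uqcrh, the acidic hinge protein that docks cytochrome c, had a log2 change of -0.11 ± 0.0758 (SE; edgeR adjusted p = 0.611). Uqcr11, the only positive member, had a log2 change of 0.01 ± 0.0875 (SE; edgeR adjusted p = 0.983).

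Cycs, the soluble electron carrier that also starts apoptosis from the cytosol, had 98.6, 99.7 and 94.8 CPM in SM positive replicates 1, 2 and 3 and 111.6, 102.2 and 96.2 CPM in SM negative replicates 1, 2 and 3. Lower values in all 3 pairs went with overlapping fractions and a log2 change of -0.08 ± 0.0643 (SE; edgeR adjusted p = 0.649). It shares 26.2% of its 31-base stretches with Gm10053, a protein-coding gene on chromosome 19 with 1407 to 1916 counts in SM positive and 1272 to 1941 in SM negative libraries. With Gm10053 pooled, the log2 change of Cycs was 0.003.

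Complex IV, cytochrome c oxidase, had 12 of 18 nuclear members tested, and all 12 were negative, between -0.37 (Cox6a2) and -0.04 (Cox7a2l), with a median of -0.08. Cox4i1, the regulatory subunit expressed in most tissues, had 335.0, 329.0 and 310.8 CPM in SM positive replicates 1, 2 and 3 and 365.8, 326.5 and 347.1 CPM in SM negative replicates 1, 2 and 3. SM negative replicate 2 lay below SM positive replicates 1 and 2, and the log2 change was -0.09 ± 0.0585 (SE; edgeR adjusted p = 0.543). Cox4i1 overlaps Emc8 on the opposite strand and Gm20388 on its own, and the strand setting used for counting is not given in the sources used here. Cox5b, a zinc-binding nuclear subunit, had 75.0, 73.3 and 69.3 CPM in SM positive replicates 1, 2 and 3 and 82.9, 76.2 and 76.0 CPM in SM negative replicates 1, 2 and 3. Its fractions did not overlap, and the log2 change was -0.11 ± 0.0614 (SE; edgeR adjusted p = 0.472 without and 0.0916 with the block).

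The isoforms of complex IV were those of non-muscle tissue in both fractions. Per kilobase of transcript, Cox6a1 stood at 187 CPM in SM positive and 194 in SM negative cells, and its heart and muscle isoform Cox6a2 at 3.39 CPM per kilobase in SM positive and 4.35 in SM negative cells. Cox7a2 and Cox8a had 152 and 327 CPM per kilobase in SM positive cells and 165 and 346 in SM negative cells, while their muscle isoforms Cox7a1 and Cox8b had at most 3 and 0 counts in a library. Cox4i2, a lung isoform that low oxygen induces, and the testis isoforms Cox6b2 and Cox8c were likewise at 0 or 1 count in every library. Log2 changes of Cox6a1, Cox6b1, Cox7a2, Cox7a2l and Cox8a lay between -0.12 (Cox7a2) and -0.04 (Cox7a2l), with edgeR adjusted p of 0.560 or more without the block (0.0582 for Cox7a2 with it).

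Complex V, the ATP synthase, had 17 members tested, with 11 negative, 6 positive and a median log2 change of -0.03, which turned to 0.01 without SM positive replicate 3 or without SM negative replicate 1. Atp5a1, the alpha subunit of the catalytic head, had 915, 938 and 905 CPM in SM positive replicates 1, 2 and 3 and 1025, 978 and 1016 CPM in SM negative replicates 1, 2 and 3. The fractions did not overlap. The log2 change was -0.13 ± 0.0493 (SE; edgeR adjusted p = 0.276 without and 0.0405 with the block), and the gene (ENSMUSG00000025428, chr18:77773729-77782869, plus strand) overlaps Haus1 on the opposite strand. Atp5b, the catalytic beta subunit, had 2199.9, 2188 and 2130.3 CPM in SM positive replicates 1, 2 and 3 and 2313, 2164 and 2252 CPM in SM negative replicates 1, 2 and 3. The fractions overlapped (log2 change -0.05 ± 0.0509, SE; edgeR adjusted p = 0.764). Per kilobase, Atp5b had the highest level of all nuclear members, 1134 CPM in SM positive and 1171 in SM negative cells, against 372 in SM positive and 407 in SM negative cells for Atp5a1.

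A few genes placed in complex V by their Atp5 names leaned the other way. Atp5s, also known as coupling factor B, had 8.86, 8.08 and 9.37 CPM in SM positive replicates 1, 2 and 3 and 7.80, 7.32 and 7.87 CPM in SM negative replicates 1, 2 and 3. Its fractions did not overlap, but the log2 change of 0.19 ± 0.109 (SE) did not pass (edgeR adjusted p = 0.490 without and 0.223 with the block). Atp5j, the coupling factor 6 of the peripheral stalk, had 111, 101 and 94.9 CPM in SM positive replicates 1, 2 and 3 and 102, 92.8 and 91.0 CPM in SM negative replicates 1, 2 and 3. It was higher in SM positive in each same-number pair although the fractions overlapped, with a log2 change of 0.10 ± 0.0723 (SE; edgeR adjusted p = 0.601 without and 0.117 with the block), and it lies head to head with Gabpa on the opposite strand. Atp5h, the d subunit of the stalk, had a log2 change of -0.11 ± 0.0689 (SE; edgeR adjusted p = 0.538). Atp5g1, Atp5g2 and Atp5g3, which encode the same mature c subunit of the rotor, had log2 changes of -0.003, -0.09 and -0.01, at 15.1, 75.6 and 310 CPM per kilobase in SM positive cells and 15.1, 80.2 and 313 in SM negative cells. The low value of Atp5g1 depends on the transcript chosen, 4715 bases long against 731 for Atp5g2 and 714 for Atp5g3. Before division by length, Atp5g1 averaged 71.3 CPM in SM positive and 71.4 in SM negative cells. Atp5g2 averaged 55.3 CPM in SM positive and 58.6 in SM negative cells. The level of Atp5g2 is uncertain: its row shares 37.5% of its 31-base stretches with the pseudogene Gm10175, which held 2698 to 3662 counts in SM positive and 2634 to 4020 in SM negative libraries, more than the Atp5g2 row itself, and with the copies pooled its log2 change was -0.08.

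**Figure D3:**
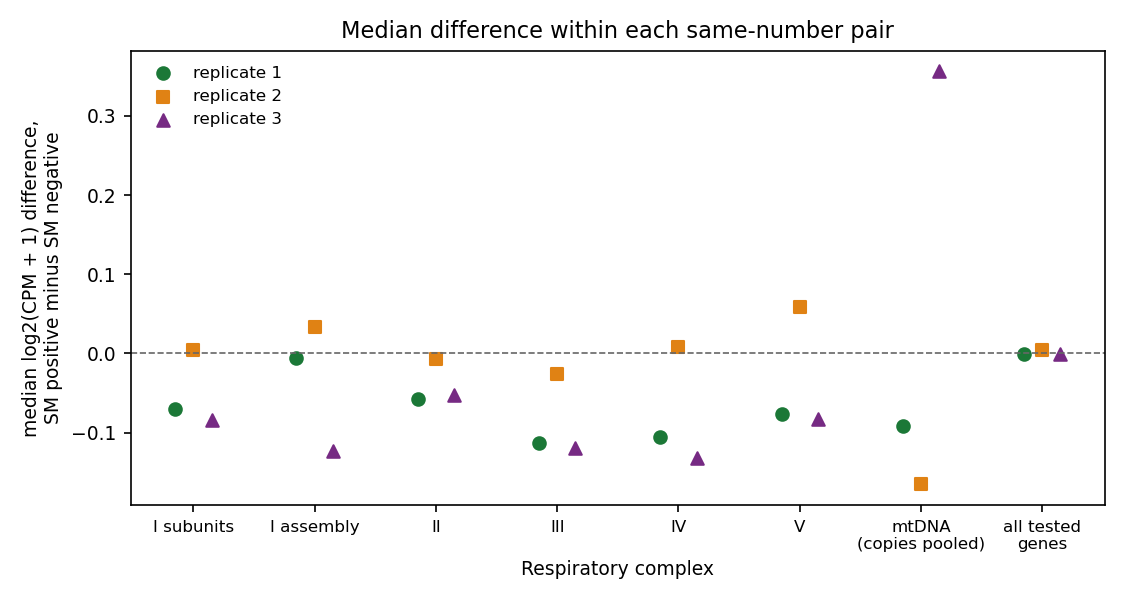
The median difference in log2(CPM + 1), SM positive minus SM negative (y axis), is drawn within each same-number pair for the members of each complex and for all tested genes. The nuclear medians of replicates 1 and 3 lie below 0 and those of replicate 2 near it, while the mitochondrially encoded median is 0.36 in replicate 3 and below 0 in replicates 1 and 2.

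Taken by replicate number, the nuclear shift was not the same in every pair. The median log2(CPM + 1) difference over nuclear members was -0.08, 0.01 and -0.10 in replicates 1, 2 and 3, where all tested genes had medians of -0.001, 0.005 and -0.001. Complex III was negative in all 3 pairs (-0.11, -0.03 and -0.12), as was complex II (-0.06, -0.01 and -0.05). Complex I (-0.07, 0.004 and -0.08), complex IV (-0.11, 0.01 and -0.13) and complex V (-0.08, 0.06 and -0.08) were above 0 in replicate 2. The size of the medians depended on single libraries. The medians of complexes I, II, III and IV were -0.02, -0.01, -0.06 and -0.01 without SM negative replicate 1 and -0.03, -0.01, -0.07 and -0.03 without SM positive replicate 3. They were -0.08, -0.06, -0.12 and -0.12 without SM positive replicate 1, and -0.03, -0.02, -0.06 and -0.05 with the length trend removed.

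The 13 genes of the mitochondrial genome, transcribed from both strands of the circle as long precursors, had to be read together with copies in the nuclear genome. Several rows of the table are matched almost base for base by annotated unprocessed pseudogenes that lie side by side on chromosome 1 (chr1:24611535-24616197, minus strand, GRCm38). The first 60 bases of 2 such pairs are shown because nothing in them lets a read be placed in one rather than the other; no base is in capitals, since no base differs.
mt-Co2 (chrM:7013-7072, plus strand): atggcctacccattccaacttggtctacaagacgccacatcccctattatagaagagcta
Gm28661 (chr1:24615506-24615565, minus strand): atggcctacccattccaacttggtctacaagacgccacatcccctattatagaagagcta
mt-Co3 (chrM:8607-8666, plus strand): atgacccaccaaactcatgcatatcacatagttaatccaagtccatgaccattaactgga
Gm28437 (chr1:24613912-24613971, minus strand): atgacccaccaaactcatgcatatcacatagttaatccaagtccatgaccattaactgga

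Over their whole overlap, mt-Co2 and Gm28661 had 681 of 681 bases the same, mt-Atp6 and Gm10925 678 of 678, and mt-Co3 and Gm28437 783 of 783. The mt-Nd3 transcript and Gm28438 differed by T3C (the mitochondrial base, its position from the transcript's 5′ end, then the base of the copy). Counts in these rows were split between the pairs: of the pooled CPM of mt-Co2, mt-Co3, mt-Atp6 and mt-Nd3, the mitochondrial rows held 4.31%, 4.38% and 4.45% in SM positive replicates 1, 2 and 3 and 4.09%, 3.07% and 5.22% in SM negative replicates 1, 2 and 3. The mt-Co2 row alone had 61.0, 0 and 20.6 CPM in SM positive replicates 1, 2 and 3 and 16.2, 10.8 and 28.9 CPM in SM negative replicates 1, 2 and 3. The mt-Co3 row had 27.9, 167 and 217 CPM in SM positive replicates 1, 2 and 3 and 171, 77.0 and 271 CPM in SM negative replicates 1, 2 and 3. Such swings between replicates gave SEs of 1.36 and 0.914 on the log2 scale for mt-Co2 and mt-Co3, against 0.0819 for mt-Nd1, which shares no 31-base stretch with another gene. The same holds for mt-Atp6 and mt-Nd3, with SEs of 0.315 and 0.378, and the pooled values are therefore used below for mt-Co1, mt-Co2, mt-Co3, mt-Atp6, mt-Nd3 and mt-Nd4l, a choice made after the data had been seen.

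**Figure D4:**
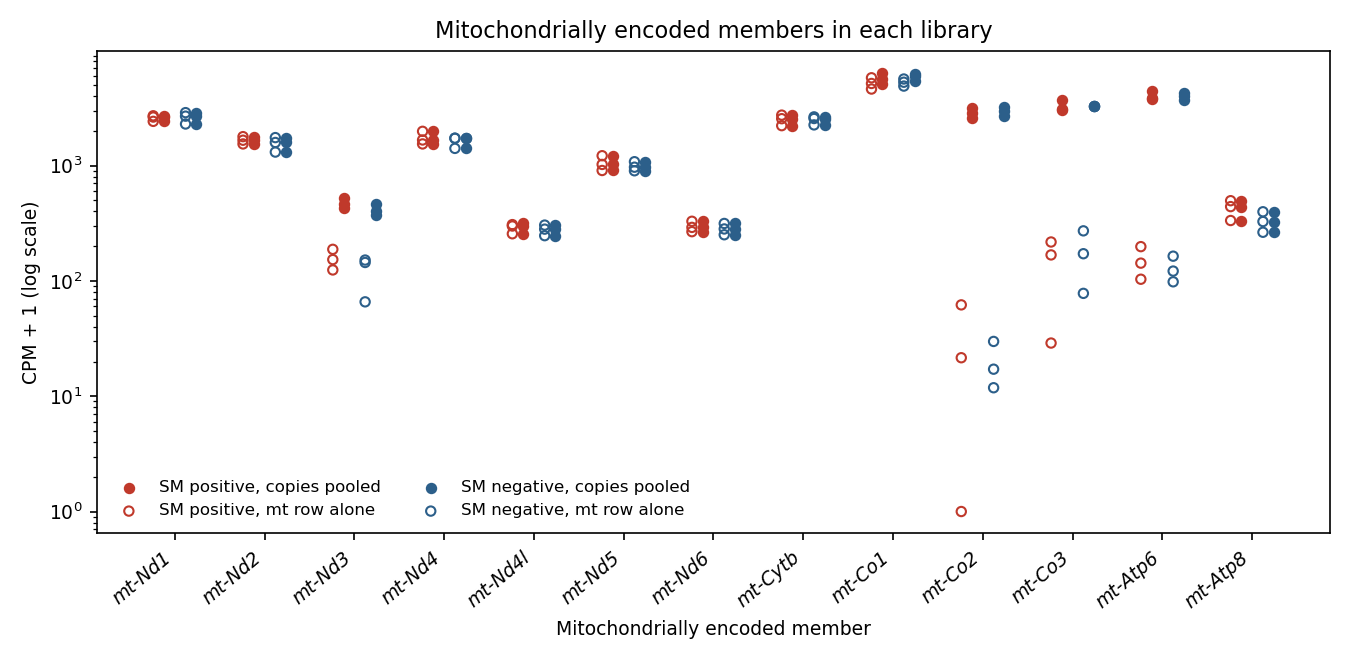
CPM + 1 (log scale, y axis) is drawn in each library for the mitochondrial row alone (open) and with rows of other genes that hold at least 10% of its 31-base stretches added (filled), SM positive left of SM negative. The open points of mt-Co2, mt-Co3, mt-Atp6 and mt-Nd3 scatter widely and far below the filled ones, and the filled points of the fractions overlap for each gene.

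With the copies pooled, 0 of the 13 mitochondrially encoded members were called (edgeR, with or without the block), where 1.36% of all genes were called without the block (1.15% higher, 0.214% lower) and 14.4% with it (8.71% higher, 5.68% lower). Their median log2 change was 0.06, between -0.05 (mt-Co2) and 0.36 (mt-Atp8), and the libraries of the fractions overlapped for every one. The pooled sum was 26290, 24576 and 29788 CPM in SM positive replicates 1, 2 and 3 and 28155, 27478 and 24485 CPM in SM negative replicates 1, 2 and 3. SM positive replicate 3 held the highest sum and SM negative replicate 3 the lowest. In replicate 3 all 13 genes were higher in SM positive (median difference 0.36), while 10 were lower in replicate 1 (median -0.09) and 11 in replicate 2 (median -0.17), and only replicate 3 had a positive median.

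Among the mitochondrial complex I genes, mt-Nd1 had 2635, 2419 and 2704 CPM in SM positive replicates 1, 2 and 3 and 2879, 2684 and 2294 CPM in SM negative replicates 1, 2 and 3 (log2 change -0.02 ± 0.0819, SE; edgeR adjusted p = 0.948). Log2 changes of mt-Nd2, mt-Nd4 and mt-Nd5 were 0.10, 0.09 and 0.09, and of mt-Nd4l (pooled) and mt-Nd6 0.06 and 0.07, with edgeR adjusted p of 0.730 or more. The mt-Nd6 transcript is read from the opposite strand to the others and overlaps mt-Nd5, and mt-Nd4l overlaps mt-Nd4 on one strand. Pooled mt-Nd3 had 429.6, 464 and 528 CPM in SM positive replicates 1, 2 and 3 and 463, 400.1 and 369 CPM in SM negative replicates 1, 2 and 3, a log2 change of 0.21 with an edgeR adjusted p of 0.380.

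The apocytochrome of complex III, mt-Cytb, averaged 2503 ± 263 CPM in SM positive and 2486 ± 206 in SM negative cells (SD, n = 3 each; log2 change 0.01, edgeR adjusted p = 0.976). The catalytic subunits of complex IV, pooled with their copies, averaged 5723 ± 639 CPM (mt-Co1), 2870.0 ± 300.5 CPM (mt-Co2) and 3284 ± 385 CPM (mt-Co3) in SM positive cells. In SM negative cells they averaged 5893 ± 388 CPM (mt-Co1), 2979 ± 272 CPM (mt-Co2) and 3299 ± 19.2 CPM (mt-Co3), with log2 changes of -0.04, -0.05 and -0.01. Each difference was smaller than the SD of the SM positive libraries.

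In complex V, pooled mt-Atp6, the proton channel subunit, averaged 3999 ± 347 CPM in SM positive and 3979 ± 241 in SM negative cells (log2 change 0.01; edgeR adjusted p = 0.980). The mt-Atp8 transcript, which overlaps mt-Atp6 on the same strand, had 333, 439.9 and 495 CPM in SM positive replicates 1, 2 and 3 and 397, 326 and 263 CPM in SM negative replicates 1, 2 and 3. SM positive replicate 1 lay below SM negative replicate 1, and the log2 change of 0.36 ± 0.199 (SE) did not pass (edgeR adjusted p = 0.513 without and 0.619 with the block). Set against the nuclear members, the pooled mitochondrial sum was 2.44, 2.31 and 2.93 times the nuclear sum in SM positive replicates 1, 2 and 3 and 2.46, 2.6 and 2.26 times in SM negative replicates 1, 2 and 3. The ratios overlap. The libraries were made from polyadenylated RNA, and how fully that samples each mitochondrial transcript was not tested.

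Genes that build or regulate the system were followed as 9 lists. Their counts stand beside 8.52% of all tested genes called higher and 5.6% called lower with the block. The complex I assembly list repeats the 8 Ndufaf members already described. Of 18 tested complex I assembly genes, 4 of complex II, 7 of complex III and 7 of complex V, 0 were called in either direction with or without the block (edgeR), with median log2 changes of 0.01, -0.11, -0.06 and -0.11. Of 25 complex IV assembly genes, 0 were called without the block and Higd1a, a hypoxia-induced factor of the respiratory chain, was higher with it. Higd1a had 83, 127 and 99.6 CPM in SM positive replicates 1, 2 and 3. SM negative replicates 1, 2 and 3 had 75.1, 108 and 87.1 CPM. The fractions overlapped, but SM positive was higher in each pair. The log2 change was 0.20 ± 0.193 (SE) without the block (edgeR adjusted p = 0.734). With the block it was 0.19 ± 0.0423 (SE, edgeR adjusted p = 0.00418).

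Of 26 tested genes for replication and expression of mitochondrial DNA, 0 were called without the block, and Ssbp1, the single-stranded DNA-binding protein of the mitochondrial replisome, was lower with it (log2 change -0.15 ± 0.0637, SE; edgeR adjusted p = 0.315 without and 0.0473 with the block). Of 24 carrier and coenzyme Q genes, Vdac2, an outer-membrane channel, and Coq5, a methyltransferase of coenzyme Q synthesis, were lower with the block (log2 changes -0.13 and -0.18; edgeR adjusted p = 0.282 and 0.346 without, 0.0328 and 0.0328 with the block). Of 26 TCA cycle genes, Me3, a mitochondrial malic enzyme, and Pdk1, the kinase that inhibits pyruvate dehydrogenase, were higher with the block. Me3 averaged 11.2 ± 2.69 CPM in SM positive and 7.67 ± 1.87 in SM negative cells (log2 change 0.54; edgeR adjusted p = 0.284 without and 0.000945 with the block). Pdk1 averaged 89.6 ± 14.7 CPM in SM positive and 77.7 ± 12.8 in SM negative cells (log2 change 0.21; edgeR adjusted p = 0.630 without and 0.00215 with the block).

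Of 17 tested regulators of mitochondrial biogenesis and respiration, Foxo1 was higher without the block, the only call in any of the 9 lists. Foxo1, a forkhead transcription factor held back by insulin signalling, had 41.5, 44.8 and 48.4 CPM in SM positive replicates 1, 2 and 3 and 33.3, 34.5 and 36.4 CPM in SM negative replicates 1, 2 and 3. The fractions did not overlap, and the log2 change was 0.37 ± 0.0762 (SE; edgeR adjusted p = 0.0459 without and 5.08e-05 with the block). Near the threshold, the call ended with library totals, a 1 CPM filter, limma-voom or removal of the length trend, and without any single library other than SM positive replicate 1 (0 calls in the lists in each). With the block 5 of the 17 regulators were higher, as were 8.52% of all tested genes, among them Hif1a, the oxygen-responsive factor (249.97 ± 7.58 CPM in SM positive and 221 ± 7.005 in SM negative cells; log2 change 0.18; edgeR adjusted p = 0.168 without and 0.00620 with the block). Myc was lower with the block (251 ± 14.96 CPM in SM positive and 283 ± 26.3 in SM negative cells; log2 change -0.17; edgeR adjusted p = 0.345 without and 0.00886 with it). The genes of the factors whose motifs are searched next averaged 48.9 CPM in both fractions for Nrf1 (log2 change -0.001) and 136 CPM in SM positive and 132 in SM negative cells for Yy1 (0.04), with edgeR adjusted p of 0.996 and 0.824, while Gabpa averaged 68.6 CPM in SM positive and 62.5 in SM negative cells (0.13; edgeR adjusted p = 0.310 without and 0.0468 with the block).

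Promoters of nuclear respiratory genes are known for sites of NRF1, GABP and YY1. RefSeq promoter windows (GRCm38.p6, 250 bases before to 50 after the start) matched 75 of the 95 nuclear members, and each motif was searched on both strands. A gene was counted if any of its windows held the motif. The NRF1 core GCATGCGC was in 13 of 75 (17.3%), against 3.05% of 27025 genes with a window. The longer NRF1 motif, which is GC followed by that core, was in 7 (9.33%), against 1.07%. The GABP motif CCGGAAGT was in 5 (6.67%), against 4.31%, and the YY1 motif AAGATGGCG in 8 (10.7%), against 1.64%, with 7 of the 8 members' matches lying after the start. A match is a run of letters and says nothing of binding here, where no binding was measured. Windows of 5 members that hold a match are given 5′ to 3′ on the gene's strand, with the match in capitals (NRF1 core in Cycs and Sdhb, GABP in Uqcr11 and, read on the other strand, in Uqcrh, YY1 in Ndufs4).
Cycs (chr6:50566570-50566669, minus strand): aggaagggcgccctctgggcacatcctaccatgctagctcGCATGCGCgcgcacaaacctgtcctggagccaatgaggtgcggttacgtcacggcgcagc
Sdhb (chr4:140961171-140961270, plus strand): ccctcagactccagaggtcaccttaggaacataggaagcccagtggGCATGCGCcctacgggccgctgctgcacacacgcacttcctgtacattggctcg
Uqcr11 (chr10:80406822-80406921, minus strand): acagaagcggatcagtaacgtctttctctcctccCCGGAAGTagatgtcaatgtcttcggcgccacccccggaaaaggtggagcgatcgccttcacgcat
Uqcrh (chr4:116075071-116075170, minus strand): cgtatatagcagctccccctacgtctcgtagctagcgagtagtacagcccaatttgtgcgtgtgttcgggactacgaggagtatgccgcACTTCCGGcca
Ndufs4 (chr13:114388045-114388074, minus strand): gcgtttgcctacaggAAGATGGCGgcggtc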

How the data were processed

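Polyadenylated RNA of 6 libraries was measured by RNA-seq, with RNA treated with DNase and libraries made with a stranded mRNA kit per the labels' protocols. The authors deposited gene-level expected counts, estimates of which 13.5% to 14.4% per library were fractional. Per the submitters' processing notes, the build was GRCm38 and the tools, listed without roles, were RSEM 1.3.1, STAR 2.6.0a and FastQC 0.11.5; the annotation release behind the counting is not given in the sources used here. Identifiers were matched to GENCODE M21 without version numbers (99.6% of 53465), which gave symbols, biotypes and coordinates (1-based).

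Counts were rounded, filtered with filterByExpr (14038 genes), scaled by TMM and fitted over all genes in edgeR 4.0.16 (R 4.3.3), using robust quasi-likelihood tests, and p-values were adjusted by Benjamini-Hochberg (threshold 0.05). CPM is TMM-scaled, and a positive log2 change means higher in SM positive. CPM per kilobase divides by the length of 1 principal transcript per gene. The scripts were tested on simulated data without pair effects, so how the replicate block handles such effects was not tested. The members, lists and motifs were chosen with earlier results of these data known. Named were all mitochondrial members, up to 2 higher and 2 lower per complex by smallest p with a mean of at least 5 CPM, complex II, Cyc1, Cycs and isoform families, and up to 2 higher and 2 lower called genes per list. Ndufa5, Ndufa9, Ndufb4, Uqcrh, Atp5b, Nrf1, Yy1 and Gabpa were named after their values were seen.

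Same-number libraries correlated in their deviations at r = 0.22, 0.28 and 0.196 across genes, each over the limit of 0.1, and they were treated as pairs. Different numbers had -0.175 to -0.0435. Deviations from a fraction's own mean sum to 0, so these negative values follow from the positive ones and add no separate evidence. What a number marks is not in the labels. Alternatives were the replicate block, RLE size factors, library totals, no filter, a 1 CPM filter (passed in 3 libraries), limma-voom (limma 3.58.1), DESeq2 1.42.0, removal of length or GC trends, and each library or pair left out. Pooling rows with at least 10% of a member's 31-base stretches was added after the data were seen.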

Additional observations from a re-analysis of the deposited data

How the results depend on the processing

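The genes called over the whole table were 190, and they were 1982 with the replicate block, 663 with no filter, 334 with DESeq2, 2063 and 2094 when the block was joined to removal of the length or the GC trend, 2016 with the block and copies pooled, 25 to 123 with 1 library left out, and 705 to 1793 when 1 pair was dropped from the blocked fit (705, 1793 and 886 without replicates 1, 2 and 3). Members called higher stayed at 0 in each of these except 0 to 1 with the block and 1 pair left out (mt-Nd4l without replicate 2, and without replicate 3 the mt-Atp6 row taken alone; with its copy pooled, mt-Atp6 was lower in SM positive in replicates 1 and 2, with 3828 and 3770 CPM in SM positive and 4221 and 3978 in SM negative libraries). Members called lower, 0 without the block, were 4 with it and 4 with copies also pooled, 1 after removing the length trend (Atp5a1), 5 after removing the GC trend (Cox7a2 added) and 0 to 10 with 1 pair left out. Calls in the other lists were 1 higher and 0 lower; with the block they were 8 higher and 4 lower, 7 and 5 after removing the length trend, 7 and 4 after removing the GC trend, 8 and 4 with copies pooled, and 4 to 7 higher and 0 to 3 lower with 1 pair left out. Without the block, the higher calls were 0 with library totals, more than 1 CPM in 3 libraries, limma-voom or the length trend removed, 4 with no filter and 0 to 1 with 1 library left out. With 1 library left out, the median lay between -0.09 and -0.02 in complex I (-0.05 with all), -0.06 and -0.01 in complex II (-0.03), -0.12 and -0.06 in complex III (-0.10), -0.12 and -0.01 in complex IV (-0.08) and -0.05 and 0.01 in complex V (-0.03). The mitochondrial median, 0.09 over the mt rows, lay between -0.01 and 0.15 with 1 library left out, between -0.09 and 0.20 when 1 pair was dropped from the blocked fit, and was 0.02 after removing the GC trend. Of 990 values of 45 named members, 81 had the other sign with none past the threshold, the largest at a log2 of 0.092. Larger reversals are not in that count. Without SM positive replicate 1, the mt-Co2 row alone had 0 and 20.6 CPM in SM positive replicates 2 and 3. It had 16.2, 10.8 and 28.9 CPM in SM negative replicates 1, 2 and 3, while its log2 change with all libraries was 0.57. The cause of these changes was not tested. The 7 members with 0 to 3 counts could not be tested at this depth, and Cox6a2, the lowest nuclear member tested, had the widest nuclear SE (0.24).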
